A study of Saccharomyces cerevisiae with 12 samples.

Results

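The genes described are 10 genes of purine synthesis and salvage in budding yeast, Saccharomyces cerevisiae, out of 5449 named genes measured on 12 Affymetrix arrays. They are ADE4, ADE8, ADE6, ADE2, ADE1, ADE13, ADE17 and ADE12 of the synthesis pathway, AAH1 of purine salvage and MTD1, which handles one-carbon units. They were found by their gene symbol in the platform annotation, and each had a single probe set. The 10 were put forward with results of these same arrays known, and which comparison prompted the choice is not recorded. The changes below are therefore given as a description, and the direction that the genes share is no independent evidence. Arrays came in 4 groups of 3 biological samples: wild type untreated, wild type with Congo Red, gcn5 mutant untreated and gcn5 mutant with Congo Red. All groups share the BY4741 background, a laboratory haploid of mating type a that needs histidine, leucine, methionine and uracil. The gcn5 mutant is impaired in Gcn5, which acetylates histones as part of the SAGA and ADA coactivators, and the labels do not name its allele or say how many clones were used. Congo Red is a dye that attaches to cell wall polymers such as chitin, and it was given at 30 µg/ml for 3 h in rich YPD medium to part of a culture whose other part was left without it. Levels are the authors' log2 values, and 1 log2 unit is a 2-fold difference.

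Purines are built on a ribose phosphate, PRPP, by a linear series of enzymes that ends in inosine monophosphate, from which a pair of branches leads to AMP and GMP. Yeast turns the series on through the transcription factors Bas1 and Pho2, which act together when late pathway intermediates accumulate, and turns it down when adenine is taken up. The same factors act on genes of histidine synthesis and of glycine and one-carbon metabolism, because the pathway consumes glycine, glutamine and formyl groups. Salvage enzymes recycle ready-made bases such as adenine and hypoxanthine.

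As a check of the labels, GCN5 (YGR252W) was at a log2 level of at most 4.08 on the 6 mutant arrays and at least 8.13 on the 6 wild type arrays. Markers of a cells were present in all groups, with the mean of 6 markers between 8.79 and 11.76. Single markers reached lower in the mutant, with MFA1 between 8.04 and 8.44, BAR1 between 6.47 and 8.49 and AGA2 between 8.30 and 9.07. The lowest mutant values of MFA2, STE2 and STE6 were 9.87, 10.38 and 9.12. Of 4 alpha-cell markers 1, MF(ALPHA)1, stayed below log2 4 on all 12 arrays. The other 3 were above that level on every array, with MF(ALPHA)2 between 4.65 and 5.81, STE3 between 4.81 and 5.53 and SAG1 between 7.92 and 8.45, and the mean of the 4 lay between 5.36 and 5.78. Medians of the arrays lay between 8.98 and 9.05, and no arrays were identical. All 10 purine genes passed the filter on dim signals, which kept 5345 genes.

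The spread between arrays of one group set the precision for these genes, so it is given first. ADE17 (YMR120C), which encodes the enzyme of the last steps to inosine monophosphate, shows it most plainly. Its log2 level was 12.59, 12.68 and 11.72 on the untreated wild type arrays numbered 1, 2 and 3, and 12.34, 12.41 and 11.10 on the treated ones. The mutant arrays gave 11.73, 11.62 and 9.59 untreated and 11.33, 11.36 and 10.02 with Congo Red. In each group the array numbered 3 was the lowest. Set against the mean of the other arrays of its group, it differed by -0.91, -1.27, -2.08 and -1.32 log2 units, in the order of groups just given. The same held in all 4 groups for ADE1, ADE4, ADE8, ADE12, ADE13 and MTD1, so that 7 of the 10 genes were lowest on the array numbered 3 throughout, against 8.34% of all 5345 genes. ADE2 and ADE6 were lowest there in 3 groups each. AAH1 (YNL141W), which encodes adenine deaminase, went the other way, with the array numbered 3 above the mean of the others by 0.10 to 0.45 in the 4 groups. Of the 6 a-cell markers 5 were also lowest on the array numbered 3 in all 4 groups, namely MFA2, STE2, STE6, BAR1 and AGA2, with a median gap of -0.93 over the 6. So were 6 of 9 genes of one-carbon, glycine and glutamine supply and 3 of 6 genes of histidine synthesis. It held for 2 of 14 other salvage genes, 0 of 9 genes of nucleotide interconversion and 0 of 5 genes of PRPP supply. The labels do not say what a number stands for beyond a replicate. The differences below are also given from refits without those arrays, and with the number or culture as a block. Refits without those arrays were added after the values above were seen. They and their p values are descriptions, and they do not measure the part that the number has in a difference.

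**Figure D1:**
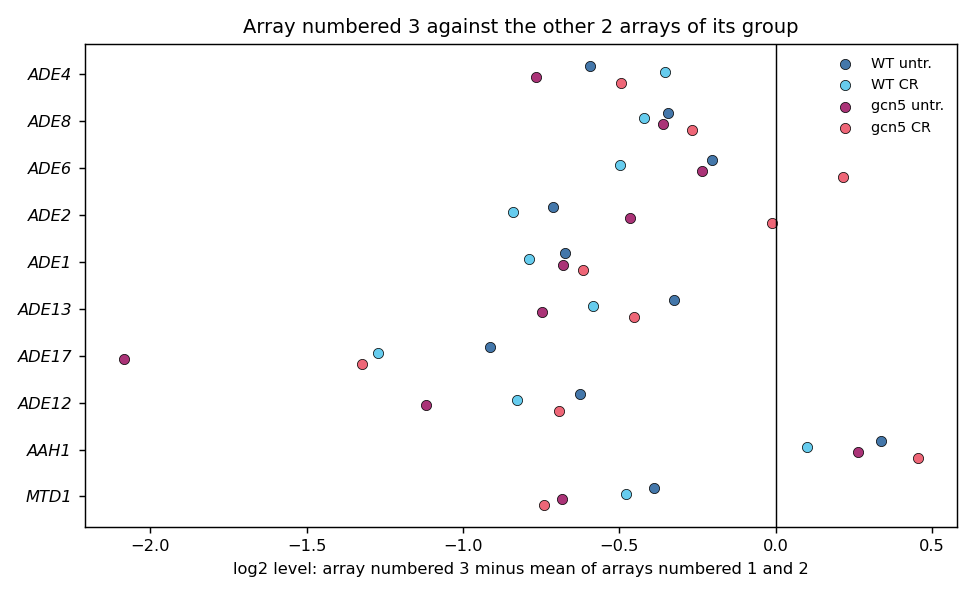
For each purine gene, the horizontal axis gives the log2 level on the array numbered 3 minus the mean of the arrays numbered 1 and 2 of the same group, with a point for each of the 4 groups (WT wild type, untr. untreated, CR Congo Red). The points of 9 genes lie below 0 apart from ADE6 in the mutant with Congo Red, and those of AAH1 lie above 0.

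Across the 12 arrays the genes other than AAH1 moved together. The 36 pairs among those 9 genes had Pearson correlations from 0.59 to 0.98, with a median of 0.87. The closest pair was ADE13 and ADE17 at 0.98. With the group means removed the 36 pairs ran from 0.26, for ADE6 with MTD1, to 0.98, with a median of 0.89. AAH1 correlated with the other 9 at 0.16 to 0.61 over the 12 arrays, and at -0.88 to -0.17 once group means were removed. These are descriptions over 12 arrays that share cultures and normalization. The 10 genes are therefore not 10 separate measurements of a condition.

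With each gene centred on its own mean over the 12 arrays, untreated wild type had an average over the 10 of 0.42 ± 0.27 (SD, n = 3), and treated wild type one of 0.01 ± 0.35 (SD, n = 3). The untreated mutant followed at -0.14 ± 0.40 (SD, n = 3), and the treated mutant was at -0.30 ± 0.23 (SD, n = 3). Untreated wild type was thus the highest group and the treated mutant the lowest, but neighbouring groups in that order overlapped.

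**Figure D2:**
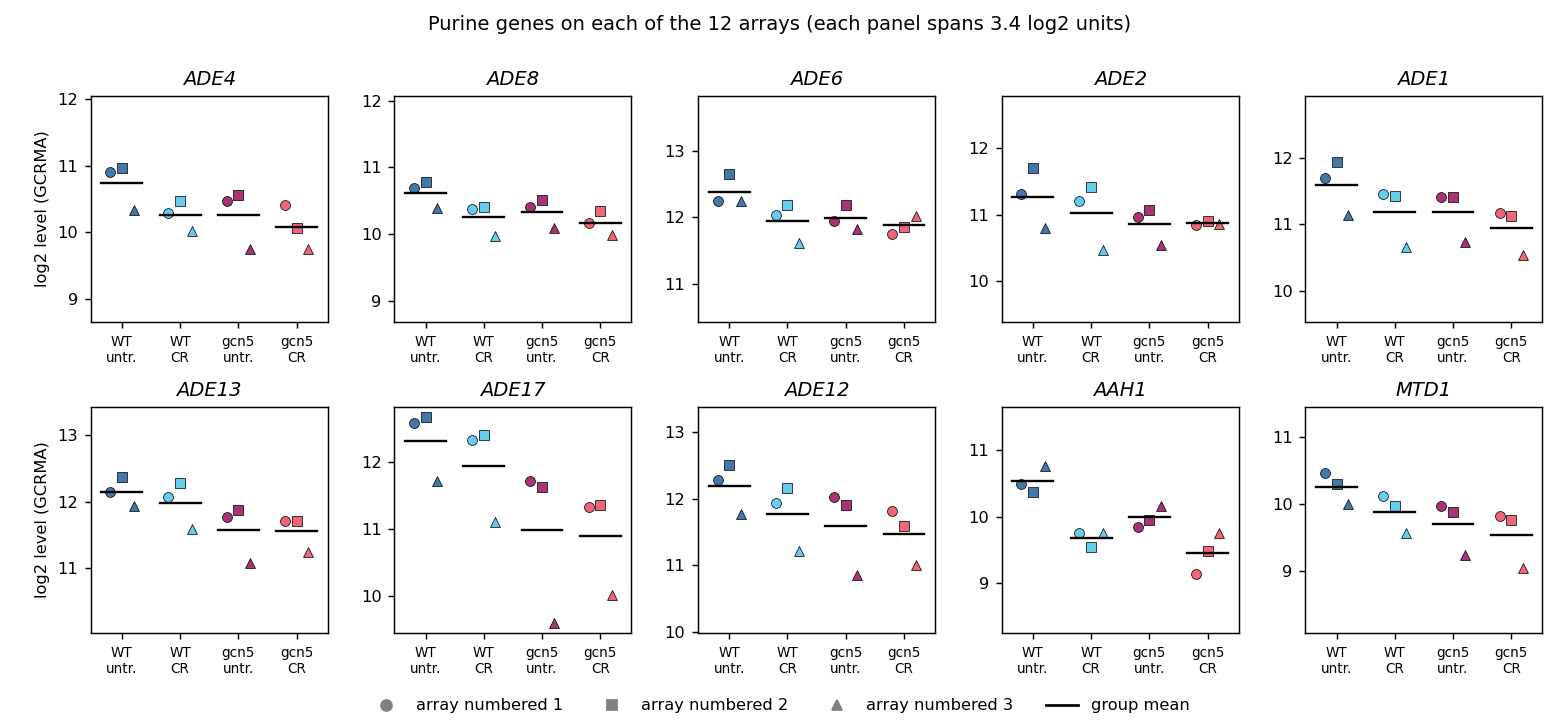
Each panel shows the log2 level of a purine gene on the 12 arrays, with the 4 groups on the horizontal axis (WT wild type, untr. untreated, CR Congo Red), a marker shape for each array number and a line at each group mean. Triangles, the arrays numbered 3, lie at the bottom of most groups except for AAH1, and the panel of AAH1 shows the untreated wild type arrays above all 9 others.

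The first comparison was of wild type cells with and without Congo Red. All 10 had lower means with the dye, with log2 changes from -0.85 to -0.17 and a median of -0.39, beside a median of -0.02 over all 5345 genes. AAH1 was 10.48, 10.36 and 10.76 untreated and 9.76, 9.54 and 9.75 with Congo Red. Its groups did not overlap, and its log2 level fell by 0.85 ± 0.16 (SE, n = 3 a group), which is 1.81-fold lower (limma adjusted p = 0.00817). AAH1 was the only one of the 10 to pass in the fit without a block, where 9.24% of all genes were called and 3.91% were called lower. The call of AAH1 was kept when any single array was left out, with adjusted p from 0.00403 to 0.0391, and with the arrays numbered 1 and 2 alone (-0.77, adjusted p = 0.0178). In those arrays ADE4 passed as well (-0.56, adjusted p = 0.0462), so that 2 of the 10 fell, beside 2.36% of all genes called lower.

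Genes of the main pathway had smaller differences against a wide spread. ADE4 (YMR300C), encoding the amidotransferase that starts the pathway, was 10.91, 10.96 and 10.34 untreated and 10.28, 10.47 and 10.03 with Congo Red. The treated arrays overlapped the untreated ones through the array numbered 3, and the change was -0.48 ± 0.25 (SE; adjusted p = 0.311). ADE6 (YGR061C), encoding the enzyme that adds an amide nitrogen from glutamine, was 12.25, 12.65 and 12.25 untreated and 12.04, 12.18 and 11.61 treated. Its groups did not overlap and its change was -0.44 ± 0.17 (SE; adjusted p = 0.144). Not overlapping held for 2 of the 10 genes, AAH1 and ADE6, or 20%, beside 14.8% of all genes lower without overlap. ADE8 (YDR408C), whose enzyme adds a formyl group early in the pathway, changed by -0.37 ± 0.16 (SE; adjusted p = 0.216).

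Within array numbers the spread was smaller. The treated and the untreated arrays of one number deviated together over all genes, with correlations of 0.53, 0.74 and 0.67. The labels describe divided cultures but do not say that arrays of one number are parts of one culture. The block by culture takes them as such. All 10 genes were lower on the treated array for each of the 3 numbers, with medians of -0.28, -0.37 and -0.46. With the culture as a block 7 of the 10 fell, beside 11.5% of all genes called lower. They were AAH1 (adjusted p = 3.6e-04), MTD1 at -0.37 ± 0.07 (SE; adjusted p = 0.00538), ADE1 at -0.41 ± 0.08 (SE; adjusted p = 0.00606) and ADE8 (adjusted p = 0.00611). The others were ADE4 (adjusted p = 0.0136), ADE12 at -0.42 ± 0.10 (SE; adjusted p = 0.0185) and ADE6 (adjusted p = 0.0254). MTD1 (YKR080W) encodes a methylenetetrahydrofolate dehydrogenase, ADE1 (YAR015W) the synthetase that joins aspartate to the growing ring and ADE12 (YNL220W) the enzyme at the start of the AMP branch. ADE2, the carboxylase whose loss turns colonies red, ADE13, the lyase that acts both in the main series and in the AMP branch, and ADE17 did not pass with the block either, at -0.24 ± 0.10, -0.17 ± 0.09 and -0.38 ± 0.15 (SE; adjusted p = 0.128, 0.227 and 0.107). RNA came from whole cultures, so a lower level per cell and fewer expressing cells cannot be told apart.

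**Figure D3:**
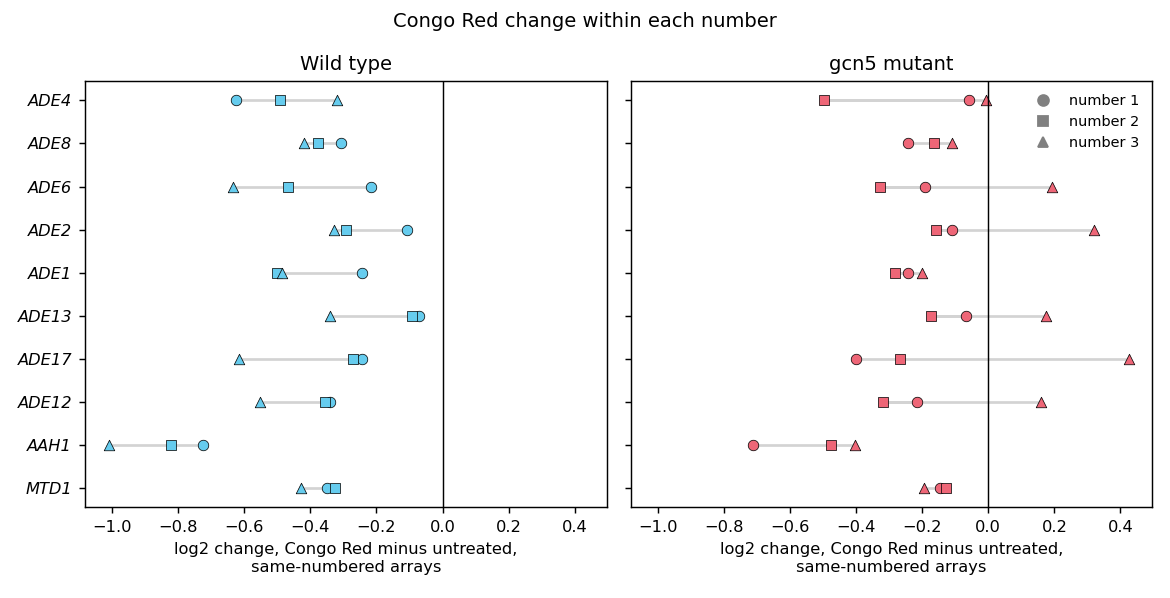
The horizontal axis gives the log2 level with Congo Red minus the level without it for arrays of the same number, with a marker shape for each number and a panel for each strain. In wild type all 30 points lie below 0. In the mutant the points of numbers 1 and 2 lie below 0 for all 10 genes, and those of number 3 lie above 0 for 5 of them.

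In the gcn5 mutant the estimates were smaller, and the strains' responses are compared in a test of their own. Their log2 changes ran from -0.53 to 0.02 with a median of -0.14, beside -0.03 over all genes, and 9 of the 10 were below 0. AAH1 again had the largest difference. It was 9.84, 9.95 and 10.16 untreated and 9.13, 9.48 and 9.76 with Congo Red, which did not overlap, and the change was -0.53 ± 0.16 (SE, n = 3 arrays a group; adjusted p = 0.282). No member passed in the fit without a block, where 1.16% of all genes were called and 0.0748% were called lower (limma). An unadjusted p under 0.05 was found for 1 of the 10, AAH1, beside 433 of all 5345 genes. The groups of 1 member in 10 did not overlap, or 10%, beside 7.95% of all genes lower without overlap. With the culture as a block 1 of the 10, AAH1, fell (adjusted p = 0.014), beside 1.16% of all genes called lower. Numbers paired here as well, with correlations of 0.84, 0.57 and 0.79.

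The array numbers differed among themselves in the mutant. For numbers 1 and 2 all 10 genes were lower on the treated array, with medians of -0.20 and -0.28. On the treated array numbered 3, 5 genes were lower and 5 were higher, with a median of 0.08. There ADE17 rested at 9.59 untreated and 10.02 treated, a difference of 0.43, and ADE2 at 10.55 and 10.87, a difference of 0.32. ADE2 (YOR128C) was 10.96, 11.06 and 10.55 in the untreated mutant and 10.85, 10.91 and 10.87 with Congo Red, a change of 0.02 ± 0.26 (SE; adjusted p = 0.993). It was -0.13 with the arrays numbered 1 and 2 alone.

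The second question was whether the response to Congo Red differs between the strains. The interaction was above 0 for all 10 genes, meaning a smaller fall, or none, in the mutant, with values from 0.15 to 0.33 log2 units and a median of 0.28. No member passed (limma, lowest adjusted p = 0.999), where 0.0561% of all genes were called. An unadjusted p under 0.05 was found for 0 of the 10, beside 310 of all 5345 genes. For AAH1 the interaction was 0.32 with a 95% interval from -0.19 to 0.83, and for ADE6 it was 0.33 with an interval from -0.19 to 0.85. Both intervals hold 0, and they reach to about the size of the wild type change for AAH1 and beyond it for ADE6. With the culture as a block 0 of the 10 passed (limma, adjusted p from 0.265 to 0.619), where 0.561% of all genes were called. In that fit 1 of the 10, AAH1, had an unadjusted p under 0.05. The share of all genes under it was not counted, so no conclusion is drawn from that count. With the arrays numbered 1 and 2 alone the interaction turned to -0.04 for ADE13 and -0.08 for ADE17.

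The third comparison set the untreated strains side by side. All 10 genes had lower means in the gcn5 mutant, with log2 differences from -1.35 to -0.29 and a median of -0.51, beside 0.02 over all genes. ADE17 had the widest difference, from a mean of 12.33 ± 0.53 in wild type to 10.98 ± 1.20 in the mutant (SD, n = 3 each). Its groups overlapped through the wild type array numbered 3 at 11.72 and the mutant array numbered 1 at 11.73. The difference was -1.35 ± 0.59 (SE), a 2.54-fold lower level (adjusted p = 0.188). ADE13 (YLR359W) was 12.14, 12.37 and 11.93 on the wild type arrays, and the mutant arrays gave 11.77, 11.88 and 11.08. The highest mutant array was below the lowest of wild type, and the means differed by -0.57 ± 0.24 (SE; adjusted p = 0.168).

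MTD1 was 10.47, 10.30 and 9.99 in untreated wild type and 9.97, 9.88 and 9.24 in the untreated mutant, without overlap, a difference of -0.56 ± 0.25 (SE; adjusted p = 0.197). AAH1 differed by -0.55 ± 0.16 (SE; adjusted p = 0.0581), also without overlap. Groups did not overlap for 4 genes, AAH1, ADE6, ADE13 and MTD1, or 40%, beside 15.1% of all genes lower without overlap. No member passed in the fit without a block (limma), where 9.82% of all genes were called and 4.92% were called lower. An unadjusted p under 0.05 was found for 5 of the 10, beside 1330 of all 5345 genes. AAH1 passed when the mutant Congo Red array numbered 1 or 3 was left out, at adjusted p = 0.0353 and 0.0332, which leaves the difference itself as it was.

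Over all genes the numbers also paired the untreated strains, with correlations of 0.53, 0.39 and 0.44. For each number all 10 genes were lower in the mutant, with medians of -0.36, -0.48 and -0.59. With the number as a block 8 of the 10 were lower, beside 9.19% of all genes called lower. These were ADE17 (-1.35 ± 0.20, SE; adjusted p = 0.00222), MTD1 (adjusted p = 0.00351), ADE13 (adjusted p = 0.00469) and ADE1 (-0.40 ± 0.08, SE; adjusted p = 0.00909). The other 4 were AAH1 (adjusted p = 0.0121), ADE12 (-0.59 ± 0.13, SE; adjusted p = 0.0133), ADE8 (adjusted p = 0.0216) and ADE4 (-0.48 ± 0.12, SE; adjusted p = 0.0228). ADE6 and ADE2 did not pass, at adjusted p = 0.0709 and 0.1. That fit counts the treated and untreated array of a culture as separate, so its errors for a difference between strains may be too small.

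Without the arrays numbered 3 and with no block, ADE17 (-0.96, adjusted p = 7.8e-04) and MTD1 (-0.46, adjusted p = 0.0348) were lower in the untreated mutant, 2 of the 10 beside 5.28% of all genes called lower. The a-cell markers were lower in the mutant too, with their mean at 8.79 to 9.83 on its untreated arrays against 10.77 to 11.76 in untreated wild type. Their part in the purine gene differences was not tested.

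**Figure D4:**
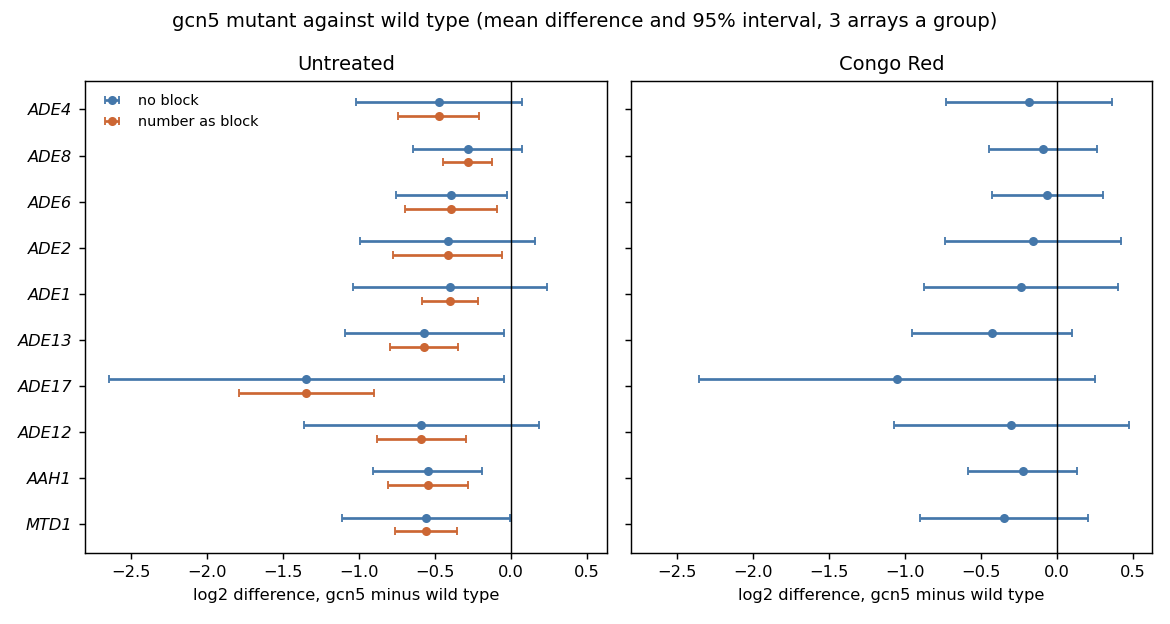
Points give the log2 difference, gcn5 mutant minus wild type, for each purine gene and bars its 95% interval from limma, without a block in both panels and with the array number as a block in the untreated panel. Points of all 10 genes lie below 0 in both panels, and the interval of ADE17 is the widest without a block.

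With Congo Red the estimates for the strains were closer, though the interaction given above passed for none of the 10 genes (0 of 10). All 10 differences were again below 0, from -1.05 to -0.06 with a median of -0.23, beside 0.00 over all genes. The groups of all 10 genes overlapped, where 14.4% of all genes were lower without overlap. In the fit 0 of 10 passed (limma), beside 11% of all genes called and 6.4% called lower. An unadjusted p under 0.05 was found for 0 of 10, beside 1397 of all 5345 genes. ADE17 was the furthest apart, at -1.05 ± 0.59 (SE; adjusted p = 0.288), with a wild type mean of 11.95 ± 0.74 and a mutant mean of 10.90 ± 0.76 (SD, n = 3 each). AAH1 differed by -0.23 ± 0.16 (SE; adjusted p = 0.419) and ADE6 by -0.06 ± 0.17 (SE; adjusted p = 0.846). With the arrays numbered 1 and 2 alone ADE17 (-1.03, adjusted p = 4.2e-04) and ADE13 (-0.47, adjusted p = 0.0368) were lower in the mutant, beside 10.2% of all genes called lower. This comparison and the untreated one have no arrays in common, but each shares its arrays with a Congo Red comparison.

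Other genes of the purine pathway were read from a list of 49, of which 48 were measured, and ADE5,7 was not analysed here. With Congo Red in wild type, and without a block, 1 of the 48 rose and 4 fell, while the other 43 missed the threshold, and the median change over all 48 was -0.09. These 5 of 48 stand beside 9.24% of all genes called, a like share. ISN1, encoding a nucleotidase that acts on inosine monophosphate, rose by 0.47 ± 0.11 (SE; adjusted p = 0.0238). PRS2, encoding a PRPP synthetase, fell by 0.52 ± 0.10 (SE; adjusted p = 0.0104) and APT1, the adenine salvage enzyme gene, by 0.37 ± 0.08 (SE; adjusted p = 0.0188). HIS6 of histidine synthesis fell by 0.55 ± 0.13 (SE; adjusted p = 0.0232). IMD4, an IMP dehydrogenase gene of the GMP branch with near-identical relatives whose probe sets may share signal, fell by 0.48 ± 0.13 (SE; adjusted p = 0.0422). With the culture as a block 2 rose, GUD1 and ISN1, and 16 fell, among them HPT1, the hypoxanthine salvage enzyme gene (-0.58 ± 0.10, SE; adjusted p = 0.00339), and FCY2, the purine and cytosine permease gene (-0.53 ± 0.13, SE; adjusted p = 0.0204). The other 14 that fell were APT1, BAS1, GCV1, GCV2, GUA1, HIS1, HIS4, HIS6, IMD2, IMD4, MEU1, MIS1, PRS2 and SHM2. The fit with the block called 23.8% of all genes, 12.3% higher and 11.5% lower. The count without a block, 5, was 3, 3 and 2 without the untreated array numbered 1, 2 or 3, and 1 and 2 without the treated array numbered 1 or 3. PRS2 was called in each of these refits, and the share of all genes called in them was not counted.

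In the mutant 0 of the 48 passed with Congo Red (limma), beside 1.16% of all genes called. An unadjusted p under 0.05 was found for 0 of the 48, beside 433 of all 5345 genes. The 4 with the smallest p were DFR1 at -0.26, ADO1 at -0.12, GUA1 at -0.16 and ISN1 at 0.19. The interaction passed for 0 of 48, and APT1, PRS2 and HIS6 had an unadjusted p under 0.05, with values of 0.31, 0.37 and 0.41 (adjusted p = 0.774, 0.798 and 0.842). These 3 of 48 stand beside 310 of all 5345 genes.

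Between the untreated strains 1 of the 48 was higher in the mutant and 3 were lower, while 44 missed the threshold, and the median over the 48 was -0.07. These 4 of 48 stand beside 9.82% of all genes called, a like share. ADK1, the adenylate kinase gene, was 12.38, 12.50 and 12.34 on the wild type arrays, while the mutant arrays read 11.66, 11.73 and 11.68. Its arrays fell into separate ranges, and the difference was -0.72 ± 0.09 (SE; adjusted p = 0.00118). FCY2 was lower by -0.67 ± 0.16 (SE; adjusted p = 0.0234) and AMD1, the AMP deaminase gene, by -0.64 ± 0.18 (SE; adjusted p = 0.0495). Both FCY2 and AMD1 were lost without the untreated wild type array numbered 2 or the untreated mutant array numbered 3, which left 2 calls each. For those refits the share of all genes called was not counted. With the number as a block 3 were higher and 7 lower, and HPT1 was then lower by -0.83 ± 0.16 (SE; adjusted p = 0.00736). These 10 of 48 stand beside 19.2% of all genes called in that fit, again a like share.

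Transcripts of GCN4 were higher in the mutant in both conditions, and those of BAS1 passed in some fits and not in others. GCN4, the amino acid starvation activator whose output is set mainly by translation, was 12.77, 12.68 and 12.92 in untreated wild type and 13.22, 13.22 and 13.35 in the untreated mutant. Mutant arrays were all above wild type arrays, by 0.47 ± 0.09 (SE; adjusted p = 0.00707). With Congo Red the difference was 0.40 ± 0.09 (SE; adjusted p = 0.0123). BAS1 was 8.61, 8.26 and 8.73 in untreated wild type and 9.01, 8.81 and 9.20 in the untreated mutant, without overlap (0.47 ± 0.15, SE; adjusted p = 0.0688). In Congo Red it was higher in the mutant by 0.57 ± 0.15 (SE; adjusted p = 0.0307). That call of BAS1 was lost with the arrays of these 2 groups alone, with the arrays numbered 1 and 2 alone (0.51, adjusted p = 0.0619), and without any single one of the 3 wild type Congo Red arrays or of the mutant Congo Red arrays numbered 2 and 3. The call of GCN4 in Congo Red was lost with the arrays of the 2 groups alone. PHO2 differed by 0.12 ± 0.15 untreated and -0.01 ± 0.15 in Congo Red (SE; adjusted p = 0.689 and 0.973).

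In Congo Red 4 of the 48 were higher in the mutant, 2 were lower and 42 did not pass, beside 11% of all genes called. With the arrays numbered 1 and 2 alone 1 was higher and 7 were lower. That fit called 4.73% of all genes higher and 10.2% lower, so all genes leaned lower as well. With all arrays these shares were 4.57% and 6.4%. The genes called with all arrays follow. ADK1 (-0.74 ± 0.09, SE; adjusted p = 6.9e-04) and GUD1, the guanine deaminase gene (-0.57 ± 0.12, SE; adjusted p = 0.0119), were lower. GCN4, BAS1, HIS6 (0.50 ± 0.13, SE; adjusted p = 0.0327) and APT1 (0.30 ± 0.08, SE; adjusted p = 0.0411) were higher. The count was 2 without the wild type Congo Red array numbered 1, and 3 without that numbered 3 or the mutant Congo Red array numbered 3. ADK1 and GCN4 were called in each of these refits, for which the share of all genes called was not counted.

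ADE16, the other gene for the enzyme that ADE17 encodes, was added after its values were seen and did not pass in any comparison without a block. Its levels were 10.98, 11.26 and 11.11 in untreated wild type and 10.90, 10.90 and 11.32 in the untreated mutant, a difference of -0.08 ± 0.19 (SE; adjusted p = 0.828). Wild type with Congo Red read 11.11, 11.52 and 11.19, and the treated mutant read 10.87, 11.00 and 11.57. In both mutant groups the array numbered 3 was the highest. The coding sequences of this pair are similar, so their probe sets may share signal. Pyrimidine synthesis genes, listed for contrast, had a median of -0.06 with Congo Red in wild type, with 0 of 8 rising and 1, URA7, falling, and a median of 0.03 between the untreated strains, with 1 higher and 1 lower.

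**Figure D5:**
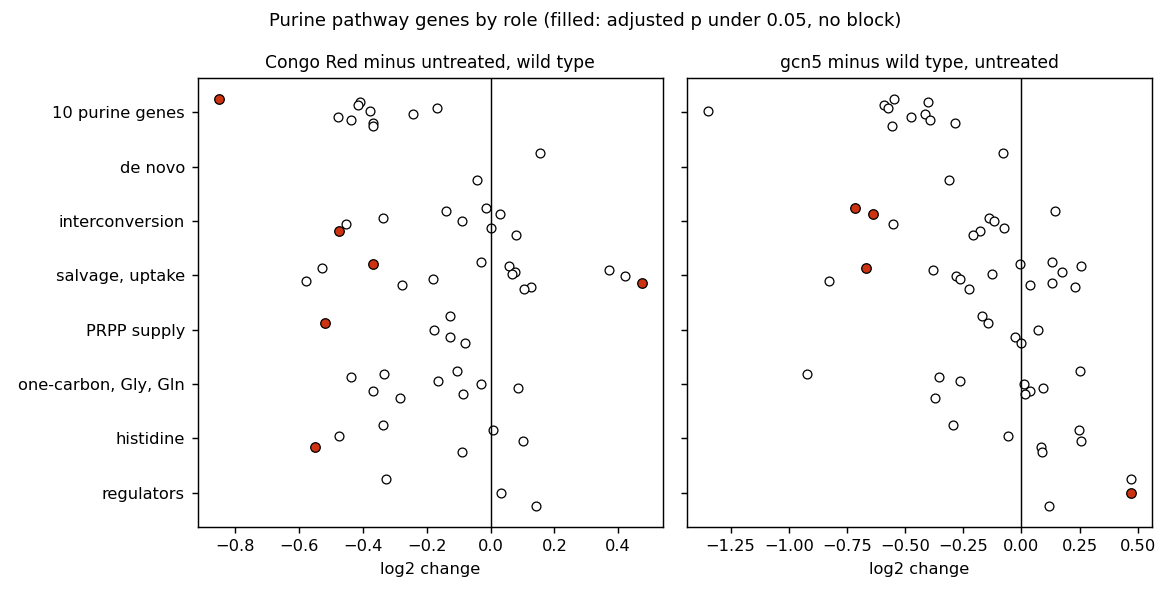
Each point is a gene of the purine pathway, grouped by role, with its log2 change on the horizontal axis, for Congo Red in wild type (left) and for the untreated gcn5 mutant against wild type (right). Filled points have an adjusted p under 0.05 without a block. The 10 purine genes all lie below 0 in both panels, and the other groups spread to both sides apart from PRPP supply on the left and the other de novo genes and the regulators on the right.

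Genes most like the average of the 10 over the 12 arrays were sought among the other 5335 genes tested. The highest Pearson correlations were those of YMR230W-A (0.96), LEU9 (0.94), RDL2 (0.94), ELO1 (0.94), OAC1 (0.93), RPS21B (0.92), SHM2 (0.92) and MUP3 (0.92). LEU9 encodes a leucine pathway synthase, OAC1 a mitochondrial carrier of oxaloacetate, ELO1 a fatty acid elongase and MUP3 a methionine permease. SHM2, encoding the cytosolic serine hydroxymethyltransferase that feeds one-carbon units, ranked 7 of 5335. HPT1 and GCV3, of the glycine cleavage system, ranked 14 and 15, at 0.91 and 0.90, and were picked out after their values were seen. At the other end lay ECL1 (-0.96), PSH1 (-0.93), YPL071C (-0.92) and HAC1 (-0.92). BAS1, PHO2 and GCN4 had correlations of -0.48, -0.47 and -0.69. These are descriptions over 12 arrays, in which array number and condition both vary.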

How the data were processed

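Total RNA of 12 samples was hybridised to Affymetrix arrays. The authors deposited log2 values per probe set, which came from GCRMA (tool name per the submitters' processing notes, version not given in the sources used here). Because that method equalises the arrays' distributions, a change common to every transcript is removed. Values ran from 2.45 to 14.34, which is a log2 range. Precision is limited by how many arrays there were.

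The platform annotation paired 5498 of 5716 probe sets with 1 gene symbol and 218 with none, with 12 symbols updated through the RefSeq gene table of assembly R64. Of 5449 genes, 47 had more than 1 probe set and were read from the brightest on average, and 5345 with log2 over 4 on at least 3 arrays were tested. Groups and numbers came from the sample titles. limma 3.58.1 in R 4.3.3 fitted 4 group means to 12 arrays (8 residual degrees of freedom), with Benjamini-Hochberg adjustment over the 5345 genes and a threshold of 0.05. Fits were checked on simulated data with noise independent between arrays, so the check does not cover arrays that pair by number. No 2 arrays were identical (highest correlation 0.9949), and the design text calls the samples biological.

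Numbers were tested for pairing by the correlation of deviations from group means. They paired the arrays in both Congo Red comparisons and between the untreated strains, with the values given above, but not between the strains in Congo Red (0.33, -0.08 and 0.11). The 10 genes and all lists were chosen with earlier results of these data known. Named by rule were the 10 genes, GCN5, other pathway genes that passed or had the 4 smallest p in a comparison, the 3 regulator genes, and the 8 genes most like and 4 most unlike the average of the 10. Alternatives were a block, fewer arrays, no filter, median centring, the mean of probe sets and leaving out single arrays. The fits with the arrays numbered 1 and 2 alone were added after the data were seen.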

Additional observations from a re-analysis of the deposited data

How the results depend on the processing

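Removing the filter, centring the arrays on their medians and averaging probe sets changed no count by over 1.5 times and no sign among the 10 genes. The block mattered most. Of the 10 purine genes, the count passing for Congo Red in wild type was 1 without a block, 7 with the culture as a block, 2 with the arrays numbered 1 and 2 alone and 7 with both, a fit that called 9.65% of all genes lower. In the gcn5 mutant it was 0, and 1 with the block, with or without the arrays numbered 3 (without them, 2.96% of all genes were called lower). Between the untreated strains it was 0, then 8 with the number as a block, 2 with the arrays numbered 1 and 2 alone and 8 with both, beside 9.47% of all genes called lower. The last 8 include ADE2 and ADE6 in place of ADE4 and ADE12. With both strains in Congo Red the count was 0, then 3 with the block (ADE13, ADE17 and MTD1, beside 10.4% of all genes called lower), 2 with the arrays numbered 1 and 2 alone and 4 with both, beside 15.9% of all genes called lower. In both comparisons between strains, untreated and in Congo Red, the labels tie same-numbered arrays by nothing but the number.

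Of the 48 other pathway genes, the count for Congo Red in wild type was 5, then 18 with the block, 3 with the arrays of the 2 groups alone, 2 with the arrays numbered 1 and 2 alone and 13 with both of these last choices, the block and those arrays. The share of all genes called was 9.24% without a block and 23.8% with it. It was 7.43% with the arrays numbered 1 and 2 alone and 22.9% with both choices. In the mutant the count of the 48 was 0, and 1 with the block and the arrays numbered 1 and 2 alone, where 6.45% of all genes were called. Between the untreated strains the count was 4, then 10 with the block and 12 with the block and those arrays. In turn these stand beside 9.82%, 19.2% and 19.1% of all genes called. Between the strains in Congo Red the count was 6 (4 higher and 2 lower), then 11 with the block (5 higher and 6 lower), 8 with the arrays numbered 1 and 2 alone (1 higher and 7 lower), 17 with the block and those arrays (5 higher and 12 lower) and 1, lower, with the arrays of the 2 groups alone. The counts of 6, 11, 8 and 17 stand beside 11%, 19.6%, 14.9% and 25% of all genes called. No share of all genes was counted with the arrays of the 2 groups alone.

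Leaving out single arrays gave 1 to 7, 2 to 4 and 2 to 7 other genes for Congo Red in wild type, untreated strains and strains in Congo Red, and 0 to 1 of the 10 between the untreated strains. It left the other counts, 1 of 10 for Congo Red in wild type and 0 elsewhere, as they were. The share of all genes called was not counted with single arrays left out, so these ranges have no background beside them. Estimates that changed sign when an array was left out were not called. For Congo Red in wild type they ran from -0.48 to 0.038 for ADE2, -0.32 to 0.027 for ADE13 and -0.68 to 0.047 for ADE17. In the mutant they ran from -0.14 to 0.12 for ADE2, -0.50 to 0.11 for ADE12, -0.27 to 0.13 for ADE13, -0.78 to 0.36 for ADE17 and -0.38 to 0.092 for MTD1. The interaction ran from -0.095 to 0.39 for ADE1, -0.021 to 0.50 for ADE2, -0.081 to 0.52 for ADE12, -0.10 to 0.30 for ADE13, -0.40 to 0.74 for ADE17 and -0.016 to 0.46 for MTD1. Between the strains in Congo Red the range was -0.44 to 0.035 for ADE2 and -0.23 to 0.056 for ADE6. With the arrays numbered 1 and 2 alone, with or without a block, the sign turned for ADE2 in the mutant (-0.13) and in the interaction for ADE13 (-0.038) and ADE17 (-0.076). Beyond the smaller number of arrays in these fits, the cause of the changes was not tested.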
